A study of Drosophila melanogaster with 12 samples.

Results

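The genes described here encode subunits of RNA polymerase II and the general transcription factors that load it onto promoters. They were chosen by symbol: probe sets annotated with exactly 1 symbol that is Tbp, Trf or Trf2, or that begins with Polr2, RpII, TfII or Taf and a number. Taf4, Taf5, Taf6, Taf8 and Taf12 were left out of the rule. It found 28 probe sets for 27 genes, among 18769 Drosophila probe sets on the array and 11982 genes with a probe set of their own. Polr2A, Polr2B, Polr2C, Polr2F, Polr2I and Taf2 had no probe set under a single symbol and were not analysed here.

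Expression was measured with Affymetrix Drosophila 2.0 arrays in whole testes of 1-day-old adult flies raised at 25 °C, with 3 arrays for each of 4 genotypes. Wild type stands for the arrays labelled y,w, although the methods of the study name a red,e data set. Med22RNAi testes carried a hairpin against the Mediator subunit gene Med22 under bam-Gal4 with UAS-Dicer2, a driver active in late spermatogonia and spermatocytes. The aly arrays came from aly2/aly5P mutants, which lack function of a subunit of tMAC, a testis-specific activator complex, and the sa arrays from sa1/sa2 mutants, which lack a tTAF, a testis form of a TBP-associated factor. Only the Med22RNAi arrays were prepared for the study, so effects of knockdown and of array set cannot be told apart. The driver without the hairpin was not measured. The Med22RNAi arrays were described as biological replicates. For the other genotypes this is not stated, so p-values measure the spread between these arrays, which may be technical.

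At a Pol II promoter, the TATA-binding protein TBP and its TBP-associated factors (TAFs) form TFIID. TFIIA and TFIIB join it, TFIIF brings in the polymerase, and TFIIE recruits TFIIH, whose helicase opens the DNA and whose kinase phosphorylates the polymerase tail. TFIIS later helps a stalled polymerase to resume. Drosophila also has TBP-related factors, Trf and Trf2. In spermatocytes, the tTAFs are germline relatives of general TAFs, and tMAC and the tTAFs are needed for many genes of spermatid differentiation.

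Most of these genes had more transcript signal in the arrested testes than in wild type. Limma was fitted across all probe sets. Against wild type, 24 members (85.7%) had an adjusted p under 0.05 in Med22RNAi, 23 (82.1%) in aly and 24 (85.7%) in sa. These stood beside 45.4%, 45.2% and 42.2% of all probe sets. Among probe sets with a wild-type mean of at least 6, 80.6%, 82.3% and 79.5% passed, near the shares of members. All members that passed were higher. The values below 0 as deposited, such as Taf3 and Polr2K in aly and Taf10b in Med22RNAi, did not pass the test. With every array at the same median, Taf10b in Med22RNAi did pass it as a fall, at -0.61 (adjusted p = 0.000274). So did probe set 2 of Taf12L, which lay at background, at -0.51 in Med22RNAi (adjusted p = 0.000109) and -0.29 in sa (adjusted p = 0.00507). The median log2 fold change over the 28 members was 1.55 in Med22RNAi, 1.93 in aly and 1.58 in sa, beside 0.00 over all probe sets in each comparison. Among the 7577 probe sets whose wild-type mean was at least 6, that median was 0.27, 0.55 and 0.51. The sign of small changes depended on scaling: 26, 25 and 27 members lay above 0 as deposited, 24, 28 and 26 with every array at the same median, and 24, 24 and 26 after quantile normalization applied again. Among changes that passed the test as deposited, the sign turned only for Taf7 in Med22RNAi. The 3 comparisons share the wild-type arrays and are not independent of each other.

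A probe set is called where the adjusted p is under 0.05 and the change at least 4-fold, the limit used in the study. In Med22RNAi 11 members (39.3%) were called higher, beside 11.3% of all probe sets and 14.2% of those with a wild-type mean of at least 6. They were Tbp, Taf1, Taf9, Polr2J, Polr2M, TfIIA-L, TfIIA-S, TfIIA-S-2, TfIIB, TfIIEalpha and TfIIEbeta. In aly 13 members (46.4%) were called higher, beside 14.3% and 21.5%: Tbp, Trf, Trf2, Taf1, Taf9, Taf10, Polr2E, Polr2J, Polr2M, TfIIA-S, TfIIA-S-2, TfIIEalpha and TfIIS. In sa 9 members (32.1%) were called higher, beside 9.52% and 14%: Taf9, Taf12L, Polr2E, Polr2J, Polr2M, TfIIA-S, TfIIA-S-2, TfIIEbeta and TfIIS. No member was called lower in any of these comparisons, where the share of all probe sets called lower was 9.02%, 10.3% and 7.69%. Among those with a wild-type mean of at least 6 it was 20.7%, 23.8% and 17.8%. At a 2-fold limit, 21, 20 and 21 members (75%, 71.4% and 75%) were higher. This was so for 22.9%, 25% and 22% of all probe sets, and 34.9%, 41.3% and 37.5% of those with a mean of at least 6. The lowest of the 3 arrays lay above every wild-type array for 25, 24 and 23 members (89.3%, 85.7% and 82.1%). The shares were 31.1%, 32% and 29.6% of all probe sets, and 47.4%, 52.1% and 49.6% of those with a mean of at least 6. Many calls lay near the limit. With every array shifted to the same median, all log2 fold changes fell by 0.46 in Med22RNAi and 0.24 in sa. Those in aly rose by 0.64. The counts were then 5, 18 and 7, beside 7.43%, 21.5% and 7.09% of all probe sets. Without wild type replicate 1 they were 7, 12 and 8, beside 10.9%, 13.7% and 8.42%.

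**Figure D1:**
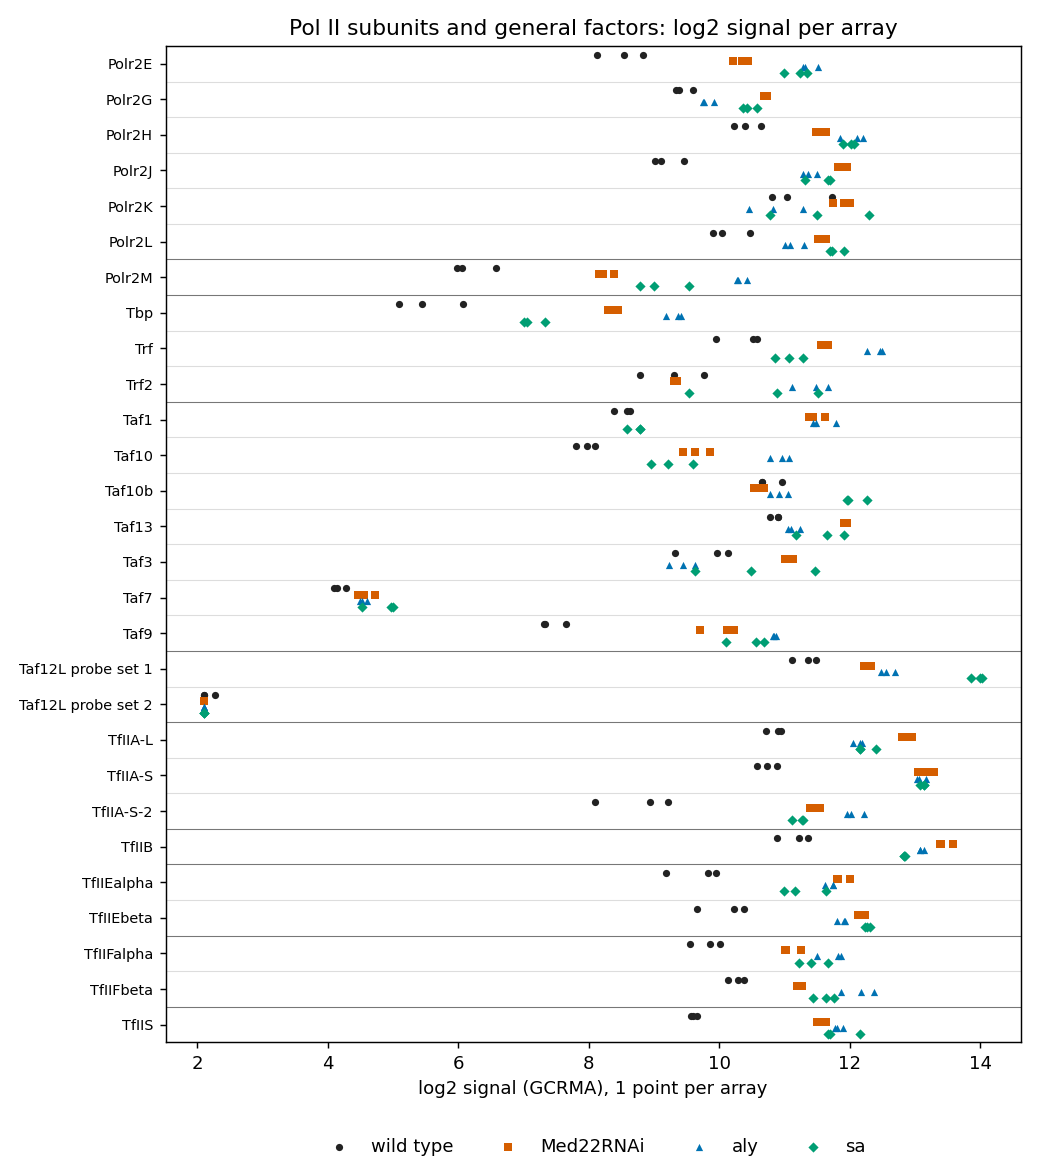
Log2 signal (x axis) of each of the 28 probe sets (rows, grouped by role) in the 12 arrays, with 1 point per array and a colour and symbol per genotype. Wild-type points lie to the left of the others in most rows, for example in TfIIB, where wild type spans 10.88 to 11.36 and the other genotypes 12.83 to 13.58.

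**Figure D2:**
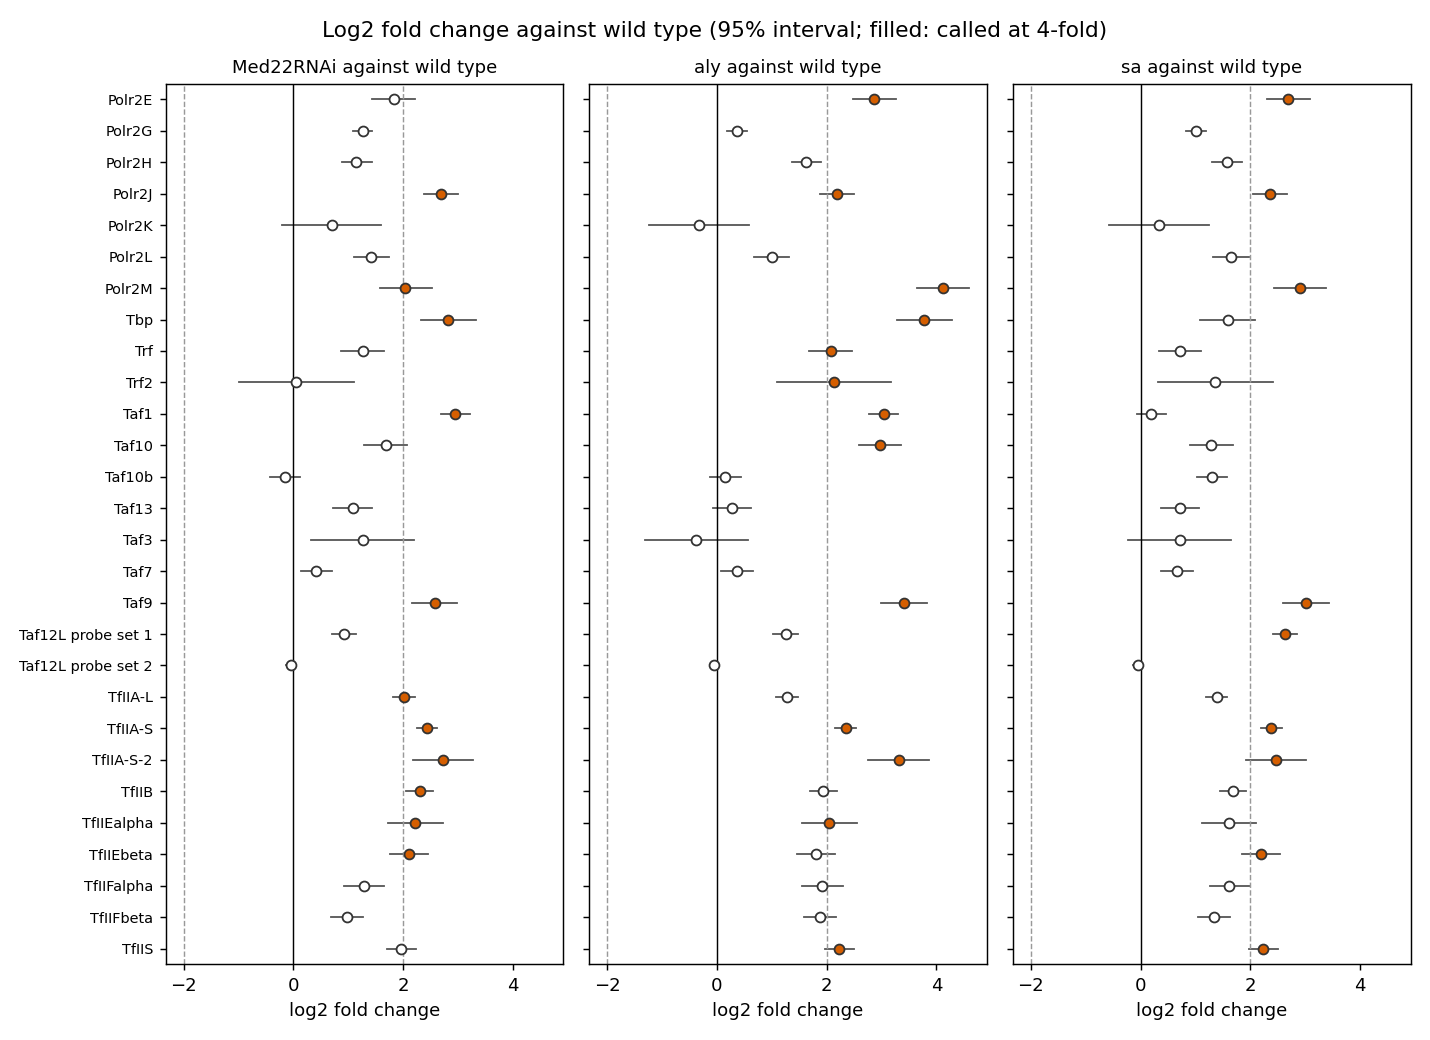
Log2 fold change against wild type (x axis) with its 95% interval from limma for the 28 probe sets in Med22RNAi, aly and sa. Filled points were called at 4-fold (dashed lines), which 11, 13 and 9 members were. No point lies beyond the line on the left.

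Whole testes hold different shares of cells in the 4 genotypes, and in such samples fewer cells of a type and less RNA per cell cannot be told apart. Of 8 genes taken as markers of post-meiotic germ cells, 6 were called lower in Med22RNAi, 7 in aly and 6 in sa. The paper describes genes of spermatid differentiation as switched on already in spermatocytes, so these markers do not measure cell number alone. The log2 of the summed marker signal was 16.38 to 16.55 on the wild-type arrays. It was 14.27 to 14.94 for Med22RNAi, 12.86 to 12.97 for aly (dj and t-cup under 3) and 13.84 to 14.42 for sa. Of 8 spermatocyte markers, 2, 7 and 3 were called higher and 1, sa itself, lower in sa, with sums of 12.77 to 13.06 for wild type and then 14.12 to 14.23, 15.96 to 16.12 and 14.21 to 14.43 for Med22RNAi, aly and sa. Of 5 markers of spermatogonia and early germ cells, bam was called higher in each arrested genotype, zpg in aly and sa and mei-P26 in sa, with sums of 10.56 to 10.68 for wild type and 10.84 to 10.95, 11.95 to 12 and 10.95 to 11.35 for the others, while the probe set of vas lay under 3 on every array. Of 8 hemocyte markers 5 were called higher in Med22RNAi (sum 13.29 to 13.59, against 10.89 to 11.06 in wild type). So were 2 of 4 muscle markers (12.76 to 13.29, against 10.32 to 11.51). Of 6 hub and cyst cell markers, piwi and zfh1 were called higher there (10 to 10.70, against 8.36 to 9.59, with tj and upd1 under 3). In aly, Hml and piwi were called higher and srp lower, and in sa Pxn and piwi were called higher. No muscle marker was called in either. Hemocyte sums were 11.53 to 12.23 in aly and 12.04 to 12.16 in sa. Hub and cyst cell sums were 8.95 to 9.69 and 9.49 to 9.65, and muscle sums 10.28 to 11.02 and 10.33 to 11.28. Fat body markers summed to 11.45 to 12.31 for wild type and to 9.87 to 10.23, 8.44 to 9.19 and 8.90 to 9.80 for the others, with 1, 1 and 2 of 6 called lower and Yp1 under 3 throughout. Accessory gland markers summed to 14.43, 13.01 and 15.12 in Med22RNAi, 12.69, 12.02 and 11.94 in aly, and 14.07, 14.21 and 12.88 in sa. Of 7 such markers 3 were called lower in aly and 0 in Med22RNAi and sa. In wild type they summed to 16.39 in replicate 1, and to 13.10 and 13.78 in replicates 2 and 3. Wild type replicate 1 was the lowest of the 3 wild-type arrays for 21 of the 27 members with any signal over 3. The same count was not made over all probe sets, so it may not be particular to the members. The part of these cell types in the values below was not tested. Med22 had no probe set under a single symbol, so the knockdown was not checked here. The log2 signal of sa was 10.63 to 10.96 in wild type and 5.54 to 6.01 in sa, and that of aly was 6.32 to 6.77 in wild type and 7.16 to 7.76 in aly, whose alleles are not stated to remove the transcript.

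Among Pol II subunits, Polr2J had the strongest rise in Med22RNAi. Its product, the counterpart of yeast Rpb11, helps assemble the enzyme. Polr2J measured 9.01, 9.11 and 9.46 on the log2 scale in wild type, 11.82, 11.96 and 11.86 in Med22RNAi, 11.29, 11.36 and 11.50 in aly, and 11.67, 11.31 and 11.69 in sa. All 9 arrays of the arrested testes lay above all wild-type arrays. The log2 fold change was 2.69 ± 0.14 (SE, limma, adjusted p = 6.88e-07) in Med22RNAi, 2.19 ± 0.14 in aly (adjusted p = 9.07e-07) and 2.36 ± 0.14 in sa (adjusted p = 1.39e-06). With quantile normalization applied again, the call in aly was lost.

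Polr2E, Polr2H, Polr2K and Polr2L encode subunits that Pol II shares with Pol I and Pol III. Polr2E measured 8.13, 8.54 and 8.83 in wild type, 10.21, 10.35 and 10.44 in Med22RNAi, 11.31, 11.29 and 11.51 in aly, and 11.24, 11.34 and 10.99 in sa. Its log2 fold change was 1.83 ± 0.17 in Med22RNAi, below the 4-fold limit, 2.87 ± 0.17 in aly and 2.69 ± 0.17 in sa (adjusted p of 2.05e-05, 6.79e-07 and 2.3e-06). The groups did not overlap except aly with sa. Polr2H rose by 1.15, 1.63 and 1.58, and Polr2L by 1.42, 1.00 and 1.64, all with adjusted p under 0.05 and none called. Polr2K stood apart. It measured 10.80, 11.03 and 11.73 in wild type, 11.74, 11.91 and 12 in Med22RNAi, 10.46, 10.83 and 11.29 in aly, and 11.49, 10.78 and 12.30 in sa. Its wild-type, aly and sa arrays overlapped, and the log2 fold changes of 0.70, -0.33 and 0.34 (SE 0.40) had adjusted p-values of 0.22, 0.599 and 0.664.

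Polr2G, the counterpart of Rpb7 in the polymerase stalk, showed an order of genotypes that depended on scaling. It measured 9.34, 9.60 and 9.39 in wild type, 10.73, 10.69 and 10.68 in Med22RNAi, 9.75, 9.77 and 9.92 in aly, and 10.37, 10.58 and 10.43 in sa. As deposited, signal was highest in Med22RNAi and lowest among the arrested testes in aly, with no overlap between any 2 genotypes. The log2 fold changes were 1.26 ± 0.08, 0.37 ± 0.08 and 1.01 ± 0.08, and Med22RNAi exceeded aly by 0.89 ± 0.08 (adjusted p = 1.94e-05). At the same median the fold changes were 0.80, 1.02 and 0.77, and the difference between Med22RNAi and aly was -0.22 (adjusted p = 0.0546). After quantile normalization the change in aly no longer passed the test (0.09, adjusted p = 0.409).

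Polr2M had the largest fold change of all members, in aly. In mammals its product, Gdown1, binds Pol II and keeps TFIIF off it. Polr2M measured 5.98, 6.06 and 6.58 in wild type, 8.22, 8.15 and 8.38 in Med22RNAi, 10.28, 10.27 and 10.43 in aly, and 9.0, 9.54 and 8.79 in sa. All 4 genotypes were separate. Against wild type the log2 fold change was 2.04 ± 0.21 in Med22RNAi (adjusted p = 3.63e-05), 4.12 ± 0.21 in aly (adjusted p = 2.42e-07) and 2.90 ± 0.21 in sa (adjusted p = 4.55e-06). Its call in Med22RNAi sat at the limit. It was lost without wild type replicate 1 (1.93), without wild type replicate 2 (1.97), without Med22RNAi replicate 3 (1.98) and under both other scalings.

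Among TBP and its relatives, Tbp rose in all 3 arrested testes by different amounts, Trf followed the same order at smaller size, and the values of Trf2 in Med22RNAi lay within the wild-type range. Tbp measured 5.09, 5.44 and 6.08 in wild type, 8.33, 8.45 and 8.30 in Med22RNAi, 9.19, 9.42 and 9.36 in aly, and 7.05, 7.33 and 7.0 in sa. No 2 genotypes overlapped. Its log2 fold change was 2.82 ± 0.22 in Med22RNAi (adjusted p = 7.02e-06), 3.78 ± 0.22 in aly (adjusted p = 5.85e-07) and 1.59 ± 0.22 in sa (adjusted p = 0.000274), the last below the 4-fold limit. Tbp was 2.19 ± 0.22 higher in aly than in sa (adjusted p = 6.32e-05), and 1.23 ± 0.22 higher in Med22RNAi than in sa (adjusted p = 0.00224).

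Trf, which in flies works mainly with Brf at Pol III genes, measured 9.95, 10.51 and 10.58 in wild type, 11.59, 11.66 and 11.56 in Med22RNAi, 12.26, 12.47 and 12.50 in aly, and 11.07, 11.28 and 10.85 in sa. Here too the 4 genotypes did not overlap. Its log2 fold change was 1.26 ± 0.17, 2.07 ± 0.17 and 0.72 ± 0.17 (adjusted p of 0.000232, 6.41e-06 and 0.00724). Med22RNAi exceeded sa by 0.53 ± 0.17 (adjusted p = 0.0412). This difference was 0.32 at the same median (adjusted p = 0.101) and 0.71 after quantile normalization (adjusted p = 0.00377). The call in aly was lost without wild type replicate 1, at 1.87, and after quantile normalization.

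Trf2 serves promoters without a TATA box, among them that of histone H1. It measured 9.77, 9.30 and 8.79 in wild type, 9.31, 9.35 and 9.35 in Med22RNAi, 11.12, 11.67 and 11.48 in aly, and 10.88, 9.54 and 11.51 in sa. The Med22RNAi arrays lay inside the wild-type range and sa replicate 2 did too. The log2 fold change was 0.05 in Med22RNAi, with a 95% interval of -1.0 to 1.10, 2.14 ± 0.46 in aly (adjusted p = 0.00372) and 1.36 ± 0.46 in sa (adjusted p = 0.0414). The change in sa missed the threshold in most other settings, among them the replicate block (0.0751) and the fit without wild type replicate 3 (1.11, adjusted p = 0.138). The spread of Trf2 in sa, with an SD of 1.01, was the widest of any member in any genotype. Trf2 was lower in Med22RNAi than in aly, with a log2 difference of -2.09 ± 0.46 (adjusted p = 0.0051). Both 4-fold calls of Trf2 hung on single arrays: that in aly went to 1.89 without wild type replicate 3, and the difference from aly to -1.96 without aly replicate 2.

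**Figure D3:**
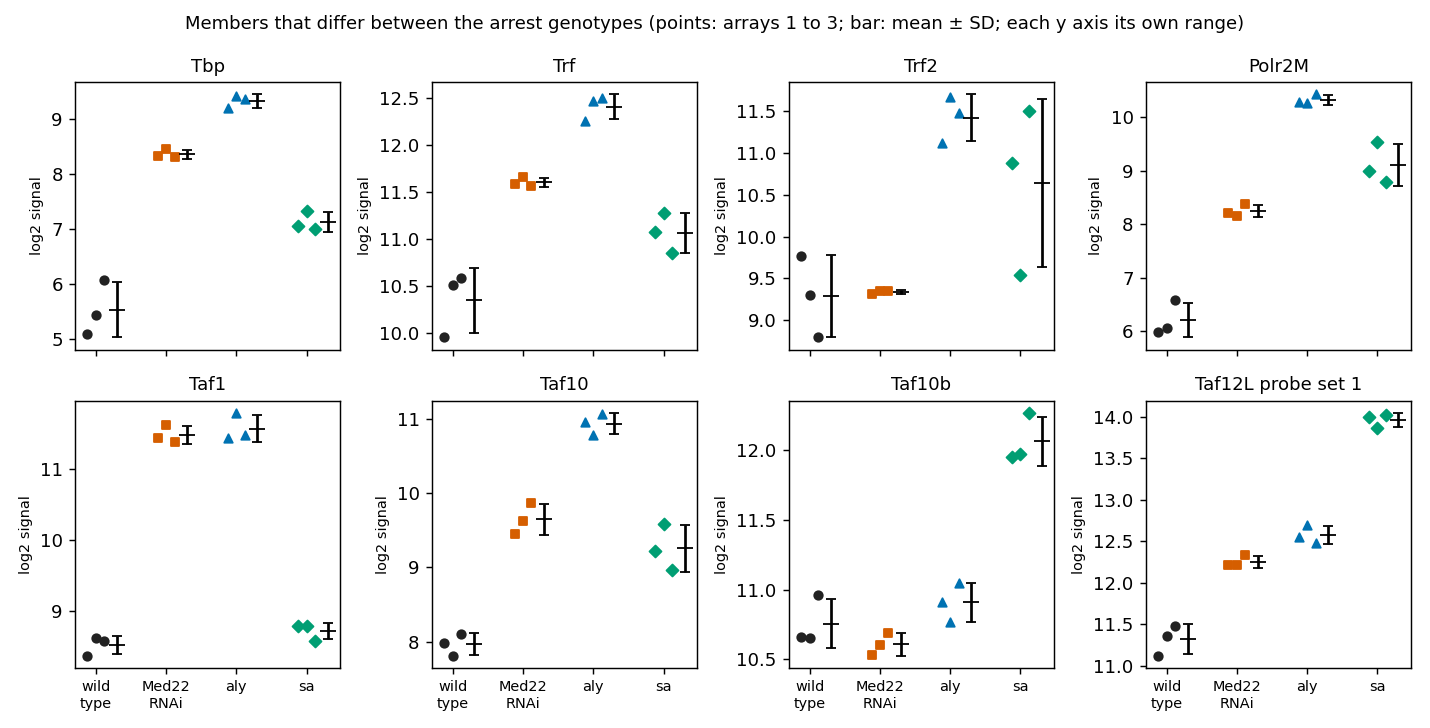
Log2 signal per array (y axis, its own range in each panel) of 8 members in the 4 genotypes (x axis), with the mean and SD of the 3 arrays as a bar. Taf1 in sa sits at 8.59 to 8.79, beside 8.38 to 8.63 in wild type, while the aly and Med22RNAi arrays reach 11.38 or more.

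Taf1 was called higher in Med22RNAi and aly but not in sa. It encodes the largest TFIID subunit, a scaffold that also contacts promoter DNA. Taf1 measured 8.38, 8.63 and 8.58 in wild type, 11.43, 11.62 and 11.38 in Med22RNAi, 11.43, 11.79 and 11.48 in aly, and 8.79, 8.79 and 8.59 in sa. The sa arrays overlapped with wild type, and those of Med22RNAi overlapped with aly, which exceeded them at the same median (log2 difference of -1.19). The log2 fold change was 2.95 ± 0.12 in Med22RNAi (adjusted p = 2.1e-07), 3.04 ± 0.12 in aly (adjusted p = 3.99e-08) and 0.19 in sa, with a 95% interval of -0.07 to 0.46 (adjusted p = 0.264) and a sign that turned under both other scalings. Taf1 exceeded its level in sa by 2.76 ± 0.12 in Med22RNAi (adjusted p = 6.78e-07) and by 2.84 ± 0.12 in aly (adjusted p = 1.75e-07).

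Taf9 was called higher in each arrested testis. It is a histone-fold TAF found in TFIID and in the SAGA coactivator. Taf9 measured 7.33, 7.32 and 7.65 in wild type, 9.70, 10.12 and 10.22 in Med22RNAi, 10.87, 10.84 and 10.82 in aly, and 10.57, 10.69 and 10.10 in sa. Wild type was separate from the rest, and log2 fold changes were 2.58 ± 0.18, 3.41 ± 0.18 and 3.02 ± 0.18 (adjusted p of 4.02e-06, 3.38e-07 and 1.81e-06).

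Taf10 and Taf10b, related genes that lie next to each other on chromosome arm 2L, differed in pattern. Taf10 measured 7.98, 7.81 and 8.10 in wild type, 9.45, 9.63 and 9.86 in Med22RNAi, 10.96, 10.78 and 11.07 in aly, and 9.22, 9.59 and 8.96 in sa. It was highest in aly, where its log2 fold change was 2.97 ± 0.17 (adjusted p = 5.39e-07), against 1.68 ± 0.17 in Med22RNAi and 1.29 ± 0.17 in sa, all with adjusted p under 0.05. Taf10b measured 10.66, 10.65 and 10.96 in wild type, 10.53, 10.60 and 10.69 in Med22RNAi, 10.91, 10.77 and 11.05 in aly, and 11.95, 11.97 and 12.27 in sa. Only its sa arrays stood clear of wild type, with a log2 fold change of 1.31 ± 0.12 (adjusted p = 1.86e-05), close to that of Taf10 there, while those of -0.15 in Med22RNAi and 0.15 in aly had adjusted p-values of 0.386 and 0.346. These became, at the same median, -0.61 (adjusted p = 0.000274) and 0.80 (adjusted p = 3.06e-05), and quantile normalization turned the value in aly to just below 0. Between aly and sa, Taf10 was higher in aly by 1.68 ± 0.17 (adjusted p = 6.82e-05), and the log2 difference of Taf10b was -1.15 ± 0.12 (adjusted p = 7.61e-05), or -0.27 at the same median.

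Taf12L matched the symbol rule but is rye, a tTAF. Its probe set 1 measured 11.12, 11.36 and 11.48 in wild type, 12.21, 12.21 and 12.33 in Med22RNAi, 12.55, 12.69 and 12.48 in aly, and 14, 13.86 and 14.02 in sa. Signal was highest in the mutant of another tTAF, sa, with a log2 fold change of 2.64 ± 0.10 (adjusted p = 1.81e-07), against 0.93 ± 0.10 in Med22RNAi and 1.25 ± 0.10 in aly. Probe set 2 of Taf12L lay under 3 on all 12 arrays and gives no fold, so the call in sa rests on 1 probe set.

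The remaining TAFs changed less than 4-fold. Taf13, a histone-fold partner in TFIID, rose by 1.08 ± 0.15 in Med22RNAi and 0.72 ± 0.15 in sa, and its change of 0.27 in aly had an adjusted p of 0.222. Taf7, a regulator of Taf1, was dim, at 4.09 to 4.28 in wild type and 4.47 to 5.0 in the other genotypes. It changed by 0.41, 0.37 and 0.66, and its change in Med22RNAi went to -0.05 and -0.13 under the other scalings. Taf3 measured 10.13, 9.97 and 9.32 in wild type, 11.13, 11.07 and 11.01 in Med22RNAi, 9.62, 9.44 and 9.23 in aly, and 10.48, 9.62 and 11.46 in sa. Its rise of 1.26 ± 0.41 in Med22RNAi passed the test narrowly (adjusted p = 0.0327). It missed it with the replicate block (0.0615), at the same median (0.80, adjusted p = 0.0785), and without wild type replicate 2 or 3 or any 1 Med22RNAi array (adjusted p of 0.0588 to 0.114). The values of -0.38 in aly and 0.71 in sa did not pass (adjusted p of 0.54 and 0.243). As with Trf2 and Polr2K, sa replicate 2 was the lowest of the sa arrays and sa replicate 3 the highest.

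All 3 TFIIA genes rose in every arrested testis. TFIIA steadies TBP on DNA, and TfIIA-L encodes its large subunit precursor, TfIIA-S and TfIIA-S-2 its small subunit. TfIIA-S measured 10.58, 10.73 and 10.89 in wild type, 13.05, 13.29 and 13.16 in Med22RNAi, 13.16, 13.03 and 13.06 in aly, and 13.13, 13.08 and 13.13 in sa. As deposited, the arrested testes shared one range, and the log2 fold changes were 2.43, 2.35 and 2.38, each ± 0.08 (adjusted p of 1.15e-07, 2.48e-08 and 1.53e-07). The 95% intervals of the differences among the 3 ran from -0.21 to 0.27. At the same median the fold changes were 1.97, 2.99 and 2.14, with aly highest. TfIIA-S-2 measured 8.10, 8.94 and 9.22 in wild type, 11.39, 11.55 and 11.51 in Med22RNAi, 12.02, 11.95 and 12.21 in aly, and 11.12, 11.29 and 11.27 in sa. Its log2 fold change was 2.73 ± 0.24, 3.31 ± 0.24 and 2.47 ± 0.24 (adjusted p of 1.5e-05, 2.7e-06 and 2.94e-05), and wild type replicate 1 was the lowest array. TfIIA-L measured 10.71, 10.94 and 10.90 in wild type, 12.83, 12.95 and 12.80 in Med22RNAi, 12.18, 12.15 and 12.05 in aly, and 12.15, 12.40 and 12.16 in sa. Its highest arrays were those of Med22RNAi, with a log2 fold change of 2.01 ± 0.09 (adjusted p = 3.04e-07), against 1.28 ± 0.09 in aly and 1.39 ± 0.09 in sa. The order turned at the same median, with 1.55 in Med22RNAi and 1.92 in aly. That call was lost without wild type replicate 1 (1.94) and without Med22RNAi replicate 2 (1.97).

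TfIIB, which bridges TBP and the polymerase, measured 10.88, 11.22 and 11.36 in wild type, 13.38, 13.58 and 13.39 in Med22RNAi, 13.07, 13.13 and 13.08 in aly, and 12.84, 12.83 and 12.83 in sa. The 4 genotypes were separate, with Med22RNAi highest as deposited. This made a log2 fold change of 2.30 ± 0.11 in Med22RNAi (adjusted p = 4.93e-07), 1.94 ± 0.11 in aly and 1.69 ± 0.11 in sa. Setting arrays to the same median put TfIIB highest in aly, with fold changes of 1.84, 2.58 and 1.44.

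Both TFIIE subunits rose. TfIIEalpha measured 9.18, 9.82 and 9.95 in wild type, 11.82, 12 and 11.80 in Med22RNAi, 11.74, 11.62 and 11.74 in aly, and 11.16, 11.64 and 10.99 in sa. Its log2 fold change was 2.22 ± 0.22, 2.05 ± 0.22 and 1.61 ± 0.22 (adjusted p of 2.81e-05, 3.55e-05 and 0.000232). TfIIEbeta measured 9.66, 10.22 and 10.38 in wild type, 12.13, 12.24 and 12.23 in Med22RNAi, 11.91, 11.93 and 11.81 in aly, and 12.31, 12.27 and 12.24 in sa. For both genes wild type lay below all other arrays and its replicate 1 was the lowest. The log2 fold change of TfIIEbeta was 2.11 ± 0.15, 1.80 ± 0.15 and 2.19 ± 0.15 (adjusted p of 4.57e-06, 7.62e-06 and 3.86e-06). Without wild type replicate 1 the calls of TfIIEalpha went to 1.99 in Med22RNAi and 1.82 in aly, and those of TfIIEbeta to 1.90 in Med22RNAi and 1.98 in sa, all just under the limit.

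The TFIIF subunit genes TfIIFalpha and TfIIFbeta were higher in every arrested testis, and neither was called. TfIIFalpha changed by 1.28, 1.92 and 1.62, and TfIIFbeta by 0.98, 1.87 and 1.34 on the log2 scale. TfIIS measured 9.56, 9.60 and 9.66 in wild type, 11.49, 11.63 and 11.61 in Med22RNAi, 11.90, 11.81 and 11.78 in aly, and 11.67, 12.15 and 11.69 in sa. Its wild-type arrays lay close together and far below the rest. The log2 fold change was 1.97 ± 0.11, 2.23 ± 0.11 and 2.23 ± 0.11 (adjusted p of 1.43e-06, 2.72e-07 and 8.12e-07), which left Med22RNAi just under the limit.

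The arrested testes were also set against each other. At 4-fold, Polr2M and Trf2 were lower in Med22RNAi than in aly and no member was higher, beside 6.52% and 10.2% of all probe sets. Against sa, Taf1 was the 1 member higher in Med22RNAi and none was lower, beside 4.57% and 4.27%. Between aly and sa, Taf1 and Tbp were higher in aly and none was lower, beside 2.96% and 7.32%. Between Med22RNAi and aly, 18 of the 28 members (64.3%) had an adjusted p under 0.05. Between Med22RNAi and sa 11 did (39.3%), and between aly and sa 11 (39.3%). The shares of all probe sets were 41%, 33.3% and 31.3%. Among probe sets with a wild-type mean of at least 6 they were 72.2%, 57.5% and 56.5%, above those of the members. At the same median the member counts, which then include Taf12L probe set 2 at background, were 24, 17 and 25. The share of all probe sets at that scaling was not counted, so these counts say nothing particular to the members. At that scaling the sign turned for Polr2G, Polr2J, Polr2L, Taf13, TfIIA-L and TfIIB between Med22RNAi and aly. Between aly and sa it turned for Polr2G and Polr2L. For Taf12L probe set 1, the log2 difference was -1.71 ± 0.10 between Med22RNAi and sa (adjusted p = 3.11e-06) and -1.39 ± 0.10 between aly and sa (adjusted p = 5.54e-06), or -0.50 at the same median. Taf3 was 1.64 ± 0.41 higher in Med22RNAi than in aly (adjusted p = 0.0104), and at the same median 0.54 higher (adjusted p = 0.214).

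**Figure D4:**
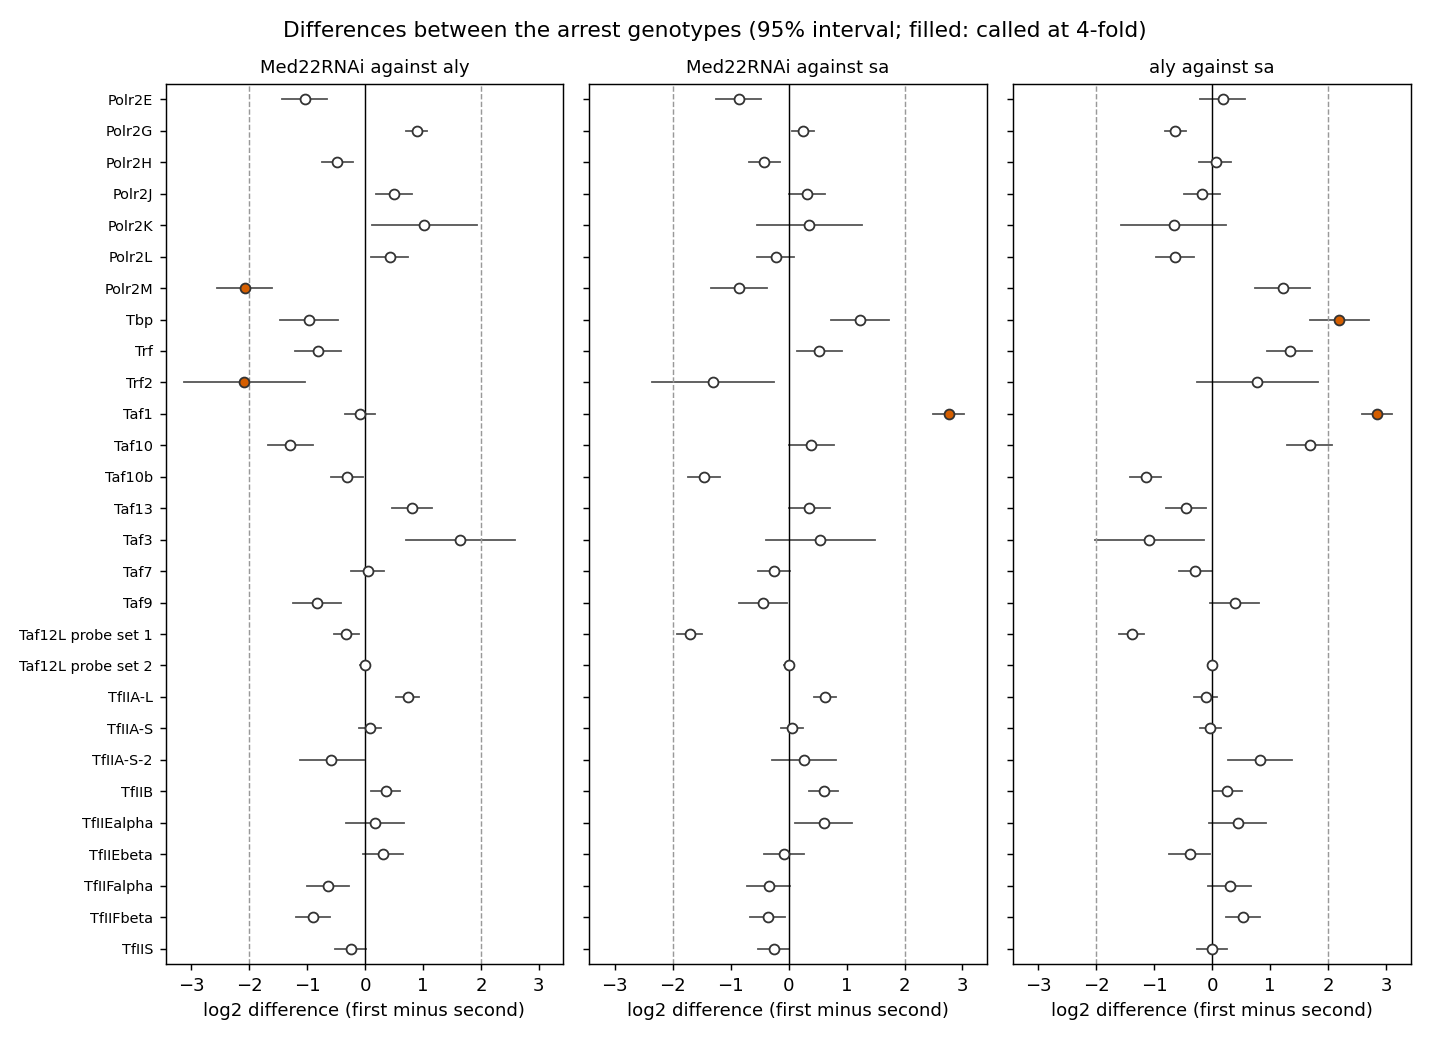
Log2 difference between arrested genotypes (x axis, first minus second) with its 95% interval from limma for the 28 probe sets. Filled points were called at 4-fold, namely Polr2M and Trf2 in Med22RNAi against aly, Taf1 in Med22RNAi against sa, and Taf1 and Tbp in aly against sa.

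Other genes of the same machinery were taken as lists. Beside the counts below, the share of all probe sets called higher was 11.3% in Med22RNAi, 14.3% in aly and 9.52% in sa. The share called lower was 9.02%, 10.3% and 7.69%. Of probe sets with a wild-type mean of at least 6, 14.2%, 21.5% and 14% were called higher and 20.7%, 23.8% and 17.8% lower. TFIIH, measured by 9 genes, had 4 called higher in Med22RNAi, 9 in aly and 8 in sa, and 0 lower, with median log2 fold changes of 1.93, 3.05 and 2.65. The helicase gene Xpd rose by 2.86 ± 0.26, 4.23 ± 0.26 and 3.70 ± 0.26, and CycH, the cyclin of the TFIIH kinase, by 3.33 ± 0.12, 2.96 ± 0.12 and 2.13 ± 0.12. The kinase gene Cdk7 rose by 1.03, 2.88 and 2.82. A second helicase gene, hay, rose by 0.76, 3.05 and 2.31. In Med22RNAi, Ssl1 and mrn changed by 0.26 and -0.22 (adjusted p of 0.489 and 0.121).

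Of 24 genes of pausing and elongation, 9, 11 and 9 were called higher and 0 lower. Cdk9, the P-TEFb kinase that releases paused polymerase, rose by 2.85 ± 0.13, 3.50 ± 0.13 and 2.63 ± 0.13, while its cyclin CycT changed by -1.96 ± 0.34 in Med22RNAi (adjusted p = 0.00113), -1.76 ± 0.34 in aly (adjusted p = 0.00207) and 0.87 in sa (adjusted p = 0.0769). Spt5, a subunit of the pausing and elongation factor DSIF, rose by 2.57, 3.73 and 2.55. CycK changed by -1.79 ± 0.17 in Med22RNAi (adjusted p = 2.26e-05) but rose by 1.89 in aly and 1.87 in sa. Su(Tpl) changed by -1.48 ± 0.27 in Med22RNAi (adjusted p = 0.00135). With every array at the same median or quantile normalized again, 2 genes of this list were called lower in Med22RNAi. The shares of all probe sets were 11.4% and 9.86%.

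Of 19 genes of Pol I and Pol III, 9, 13 and 8 were called higher and 0 lower. In Med22RNAi under the other scalings, 5 and 6 were called higher, beside 7.43% and 9.2% of all probe sets. There 1 was called lower, beside 11.4% and 9.86%, and TAF1C-like changed by -1.74 as deposited (adjusted p = 2.23e-06). Polr1A, the largest Pol I subunit, rose by 4.52 ± 0.17, 4.23 ± 0.17 and 2.25 ± 0.17, and Polr3A, the largest Pol III subunit, by 2.92 ± 0.38, 5.80 ± 0.38 and 4.47 ± 0.38. Brf, the Pol III factor that partners Trf, measured 8.04, 8.22 and 8.05 in Med22RNAi, and lay near background elsewhere, at 2.73 to 3.19 in wild type, 3.19 to 3.95 in aly and 2.76 to 3.21 in sa, so that no exact fold is given for it. Of 4 further genes linked to TFIID or TBP, 1, 3 and 2 were called higher. Dref, which binds promoters together with Trf2, rose by 3.29 ± 0.29, 4.70 ± 0.29 and 3.27 ± 0.29. These lists were chosen with earlier results of the data known, and nothing particular to any of them was tested.

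**Figure D5:**
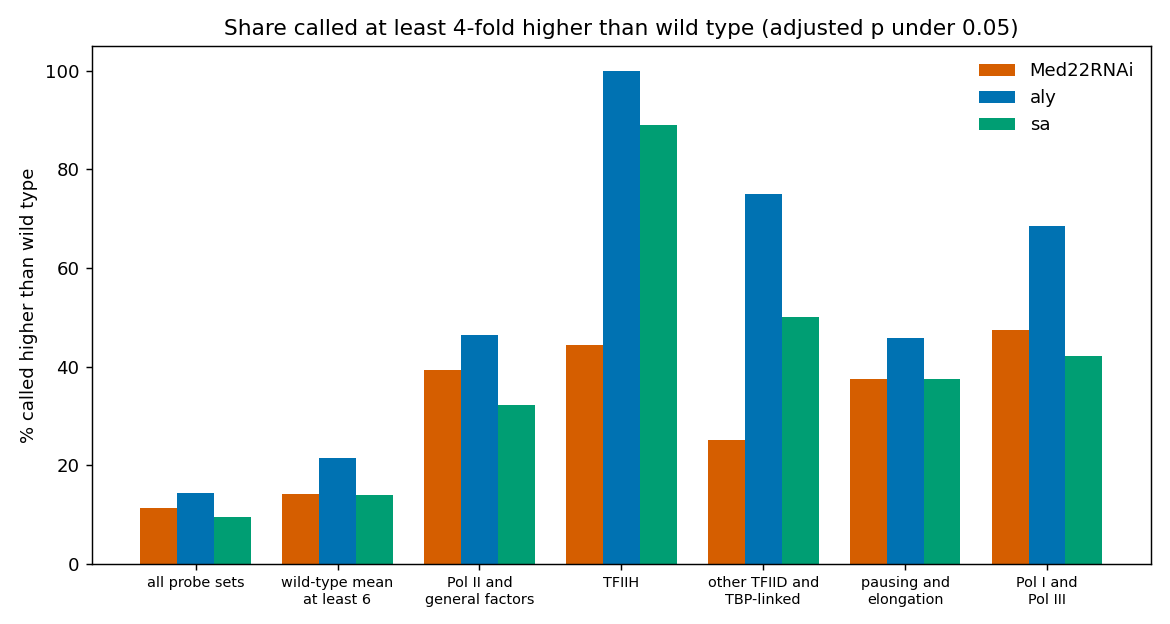
Percentage of probe sets called at least 4-fold higher than wild type (y axis, from 0) in Med22RNAi, aly and sa. Bars for all probe sets stand at 11.3%, 14.3% and 9.52%, and those for Pol II and general factors at 39.3%, 46.4% and 32.1%; for TFIIH and the other lists 1 probe set stands for each gene.

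A pair of probe sets carried the symbol of a general factor beside that of another gene and was not counted. The probe set for Polr2D and Ada2a had mean log2 signals of 8.09 in wild type, 10.19 in Med22RNAi, 10.37 in aly and 9.88 in sa, and that for Taf11 and Gdi had 7.88, 11.68, 10.86 and 9.26. Which gene of each pair carries the signal cannot be told from the arrays.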

How the data were processed

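Total RNA (about 250 ng per array) from testes dissected without seminal vesicles and accessory glands was measured on 12 arrays. The values deposited by the authors are log2 signals made with GCRMA, which corrects background by probe base content, normalizes the arrays and summarises each probe set. The processing notes give no version, and nothing states whether the 12 arrays were processed together. The lowest value is 2.11. Of 18952 rows, 183 control probe sets were removed. Symbols came from the array's annotation, which gives 1 symbol to 13647 probe sets, several to 402 and none to 4720. All 28 members were found in the release 6 gene table, used for names and neighbours only.

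A linear model with 1 mean for each genotype was run on the 12 arrays in limma 3.58.1 (R 4.3.3, lmFit, then eBayes). Benjamini-Hochberg adjustment took in all 18769 probe sets. Genes whose arrays in a genotype all lay under 3 have no level there. Python 3.11.15, pandas 2.3.3 and matplotlib 3.10.9 did the rest. The fit was tested on simulated data.

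Named with all values are members called against wild type, Tbp, Trf, Trf2, and Polr2A and Polr2B (not analysed here). So are the 2 largest and 2 smallest changes per comparison and the TfIIA-S and Taf10 paralogs. Up to 4 called genes per list are also named, without array values except for Brf. These were not always the genes with the largest change. In Med22RNAi, for example, Ssu72 of the elongation list rose by 3.95 and was left out above. Polr2G, CycT, CycK, Su(Tpl), TAF1C-like, Ssl1 and mrn were chosen after their values were seen. The members and lists were chosen with earlier results of these data known. Alternatives were fits of 2 genotypes, a replicate block, other scalings, a filter or floor at 4, a 2-fold limit, a variance trend, and each array left out. The number of arrays limits the precision.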

Additional observations from a re-analysis of the deposited data

How the results depend on the processing

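No called member changed direction in any setting that was run. Members called higher in Med22RNAi numbered 11 as reported, 5 with every array at the same median, 21 at the 2-fold limit and 7 to 12 with 1 array left out. In aly 13 were called, with 8 after quantile normalization and 20 at 2-fold, and in sa 9, with 21 at 2-fold. Of all probe sets, 11.3% were called higher in Med22RNAi as reported, 7.43% at the same median and 22.9% at 2-fold. In aly the shares were 14.3% as reported, 14.1% after quantile normalization and 25% at 2-fold. In sa they were 9.52% as reported and 22% at 2-fold. At the same median, 8 calls against wild type were lost (in Med22RNAi those of Polr2M, TfIIA-L, TfIIA-S, TfIIB, TfIIEalpha and TfIIEbeta, in sa those of TfIIEbeta and TfIIS) and 5 gained. Quantile normalization lost 6 (Polr2M in Med22RNAi, and Polr2J, Trf, Trf2, TfIIEalpha and TfIIS in aly). Leaving out wild type replicate 1 lost 7. Between arrested genotypes, the 2 members lower in Med22RNAi than in aly became 5 at the same median, 4 at 2-fold and 1 to 2 with 1 array left out, and 1 was higher at 2-fold. Med22RNAi against sa had 2 higher and 2 lower at 2-fold, and aly against sa had 5 higher at the same median, 5 higher at 2-fold and 2 lower at 2-fold. For the comparisons between arrested genotypes, the share of all probe sets at these settings was not counted. Those counts therefore cannot be set against a background. The cause of all these shifts was not tested.

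With the replicate block, 11, 13 and 9 members were called higher against wild type and none of the 84 member calls at 4-fold changed. At an adjusted p of 0.05 alone, the block lost Taf3 in Med22RNAi, Taf7 in aly and Trf2 in sa. Over 18 pairs of same-numbered arrays, deviations from the genotype means correlated at -0.271 to 0.331, with 5 over 0.1. Differently numbered pairs spanned a similar range, -0.24 to 0.327, so the numbers gave no sign of pairing. Whether some arrays shared a batch was not tested. Fits of 2 genotypes, the filter and the floor at 4 and the variance trend changed no call at 4-fold. Signals near the lowest value limit Taf7 and Taf12L probe set 2.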
